A study of Mus musculus with 10 samples.

Results

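RNA sequencing set brown adipocytes treated with BML-260 against brown adipocytes treated with ISO, both listed at 1 day, in 4 of the 10 libraries of the study. The libraries were taken by the treatment and time in their labels, 2 for each treatment. No gene was left out by choice: of the 24640 gene symbols in the deposited table, the 15212 that passed a filter on low counts were tested. All groups used here share a C57BL/6 strain background and the cell type: BML-260 for 1 day, ISO for 1 day, and, as reference values, the solvent DMSO for 1 day and for 3 days. Libraries of BML-260 for 3 days also entered the model fit, the distances between libraries and the authors' pooled comparison described below. BML-260 is marketed as a small-molecule inhibitor of Dusp22, a dual-specificity phosphatase, and ISO is an abbreviation that the labels leave unexpanded. No source used here gives the doses, the age of the cultures or whether both libraries of a group came from separate cultures or animals. The p-values therefore reflect the spread between these libraries alone, and that spread may be technical.

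Brown adipocytes oxidise lipid in their mitochondria and release the energy as heat through the uncoupling protein Ucp1. In these cells beta-adrenergic receptors raise cyclic AMP, which releases fatty acids from lipid droplets and, through CREB and related factors, drives transcription of thermogenic genes. The cells arise from fibroblast-like precursors that deposit a collagen and fibronectin matrix, and matrix genes are known to decline while lipid and mitochondrial genes rise as precursors mature.

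Counts per library came to 17094354 and 19232978 with BML-260 and to 16955918 and 21185675 with ISO, and those of all 10 libraries lay between 16955918 and 21185675. Levels are given below as CPM, a gene's count relative to the library's total count after TMM scaling. All 24 fixed adipocyte genes, Adipoq and Fabp4 among them, were detected well enough to be tested, and together they held 21670 to 22590 CPM with BML-260, 14160 to 14990 CPM with ISO, 18930 to 19120 CPM with DMSO at 1 day and 15100 to 15400 CPM with DMSO at 3 days. Fabp4 weighs heavily in these sums, with means of 10437, 4339, 6393 and 4599 CPM in the same order of groups. Against DMSO at 1 day, 13 of the 24 were lower and 4 higher with BML-260 at an adjusted p under 0.05. Over all 15212 tested genes, 1311 were lower and 1417 higher in that comparison. Endothelial, macrophage and skeletal muscle markers were scarce, while fibroblast and smooth muscle markers, given with the matrix genes, were not. The 9 endothelial markers in the table summed to 4.957 to 5.342 CPM with BML-260 and 5.869 to 6.574 CPM with ISO, the 6 macrophage markers to 6.927 to 8.807 CPM and 9.495 to 10.52 CPM, and the 4 skeletal muscle markers to 0.6329 to 1.115 CPM and 1.136 to 1.145 CPM. Cdh5 and Emcn of vessels and Cd3e and Cd8a of T cells had 0 counts in all 4 libraries.

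The time label of ISO rests on the time field alone, since the titles of its libraries, unlike those of BML-260 and DMSO, carry no day, and over all genes the ISO libraries stood nearer to the 3-day libraries than to the 1-day ones. Their root mean square difference in log2(CPM + 0.5) over 15212 genes was 0.394 to 0.409 to BML-260 at 1 day, 0.266 to 0.305 to BML-260 at 3 days, 0.374 to 0.391 to DMSO at 1 day and 0.269 to 0.284 to DMSO at 3 days, with 0.210 between the 2 ISO libraries. The BML-260 libraries at 1 day lay 0.262 to 0.285 from DMSO at 1 day and 0.373 to 0.395 from DMSO at 3 days. No source used here gives the age of the ISO cultures at harvest, so culture age and treatment cannot be told apart in the values below that set ISO against BML-260 or against DMSO at 1 day.

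The message of the phosphatase that BML-260 is sold to block was measured first. Dusp22 stood at 78.6 and 80.3 CPM with BML-260 and 76.6 and 72.5 CPM with ISO, beside 75.9 and 75.7 CPM with DMSO at 1 day. The log2 difference of 0.09 ± 0.06 (SE) did not pass the test (adjusted p = 0.19). A message level does not measure the activity of the protein.

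Most tested genes of fatty acid oxidation and mitochondrial respiration were higher, and most of the matrix, fibroblast, acute phase and clock lists lower, with BML-260 than with ISO. Of 15212 genes tested, 6752 (44.4%) differed at an adjusted p under 0.05, 3288 (21.6%) higher and 3464 (22.8%) lower with BML-260. The changes were mostly small. At least 1 unit on the log2 scale, a doubling or halving, separated the groups in 286 genes higher (1.88%) and 327 lower (2.15%). The 2 libraries of a treatment did not overlap those of the other in 10704 genes (70.4%), so a lack of overlap alone is common here. DESeq2 called 4977 genes, of which 4975 were among the 6752 and in the same direction, and 387 of them had a log2 difference of at least 1 in size.

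**Figure D1:**
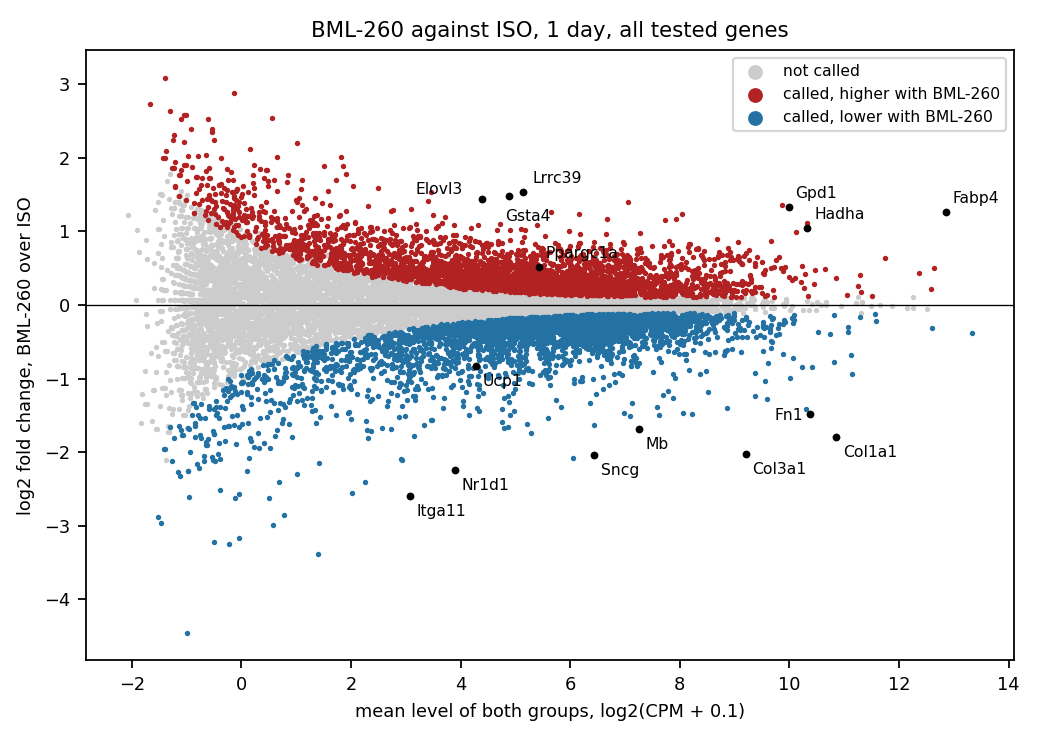
Log2 fold change of BML-260 over ISO (vertical axis) against the mean level of both groups in log2(CPM + 0.1) (horizontal axis), 1 point per tested gene, with called genes in colour and 15 genes labelled. The abundant genes farthest above 0 include lipid genes (Fabp4, Gpd1, Hadha), and those farthest below include matrix genes (Col1a1, Col3a1, Fn1) and Mb.

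Fabp4, Elovl3 and Gsta4 were among the genes highest over ISO. Fabp4, the fatty acid carrier of adipocytes (chr3:10204088-10208576, GRCm38), had 10313 and 10560.0 CPM with BML-260, against 4383 and 4295 CPM with ISO, 6517 and 6268 CPM with DMSO at 1 day and 4674 and 4524 CPM with DMSO at 3 days. Both BML-260 libraries lay above every library of the other 3 groups, and the log2 difference to ISO was 1.27 ± 0.04 (adjusted p = 2.3e-18). Elovl3, a fatty acid elongase induced in cold-exposed brown fat (chr19:46131897-46135694), had 33.1 and 28.0 CPM with BML-260, against 11.7 and 10.8 CPM with ISO and 11.8 and 9.61 CPM with DMSO at 1 day. The BML-260 libraries stood above those of ISO and DMSO, which overlapped, and the log2 difference to ISO was 1.45 ± 0.11 (adjusted p = 1.9e-11). Gsta4, a glutathione transferase that clears products of lipid peroxidation, had 43.9 and 43.1 CPM with BML-260 and 15.7 and 15.6 CPM with ISO (log2 difference 1.47 ± 0.07).

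For Gpd1 and Osgin1, also among the 12 highest, BML-260 did not pass the test against DMSO at 1 day and ISO lay below both. Gpd1, which makes the glycerol phosphate backbone of triglycerides, had 1422 and 1485 CPM with BML-260, against 612 and 545 CPM with ISO, 1487 and 1509.7 CPM with DMSO at 1 day and 594 and 590.2 CPM with DMSO at 3 days. BML-260 differed from DMSO at 1 day by -0.04 on the log2 scale and ISO by -1.37. G0s2, an inhibitor of the lipase Pnpla2, had 351 and 384 CPM with BML-260 and 166 and 146 CPM with ISO, with DMSO at 1 day above both at 444 and 482 CPM, and BML-260 was lower than DMSO at 1 day, with a log2 difference of -0.33. Osgin1, a gene of the oxidative stress response, had 15.8 and 14.9 CPM with BML-260, 5.50 and 5.97 CPM with ISO, 16.4 and 17.0 CPM with DMSO at 1 day and 5.59 and 6.19 CPM with DMSO at 3 days. The rule that chose these genes asked for no overlap between BML-260 and ISO, so their separation is not a result. The remaining 6 of the 12 were Lrrc39 (log2 difference 1.54), Nabp1, which encodes a single-stranded DNA binding protein (1.40), Trmt12, a tRNA-modifying enzyme (1.30), Fam195a (1.26), Hadhb (1.23) and Pdss1, which builds the tail of coenzyme Q (1.22). Nabp1, Trmt12 and Fam195a did not pass between BML-260 and DMSO at 1 day either. From that solvent group ISO differed in these genes by -1.30, -1.47 and -1.14. Among the 6 most raised of at least 200 CPM were also Thrsp, a lipogenic gene responsive to thyroid hormone, with 296 and 291 CPM with BML-260 and 139 and 124 CPM with ISO, and Cd36, the fatty acid transporter, with 1468 and 1504 CPM with BML-260 and 774 and 722 CPM with ISO.

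**Figure D2:**
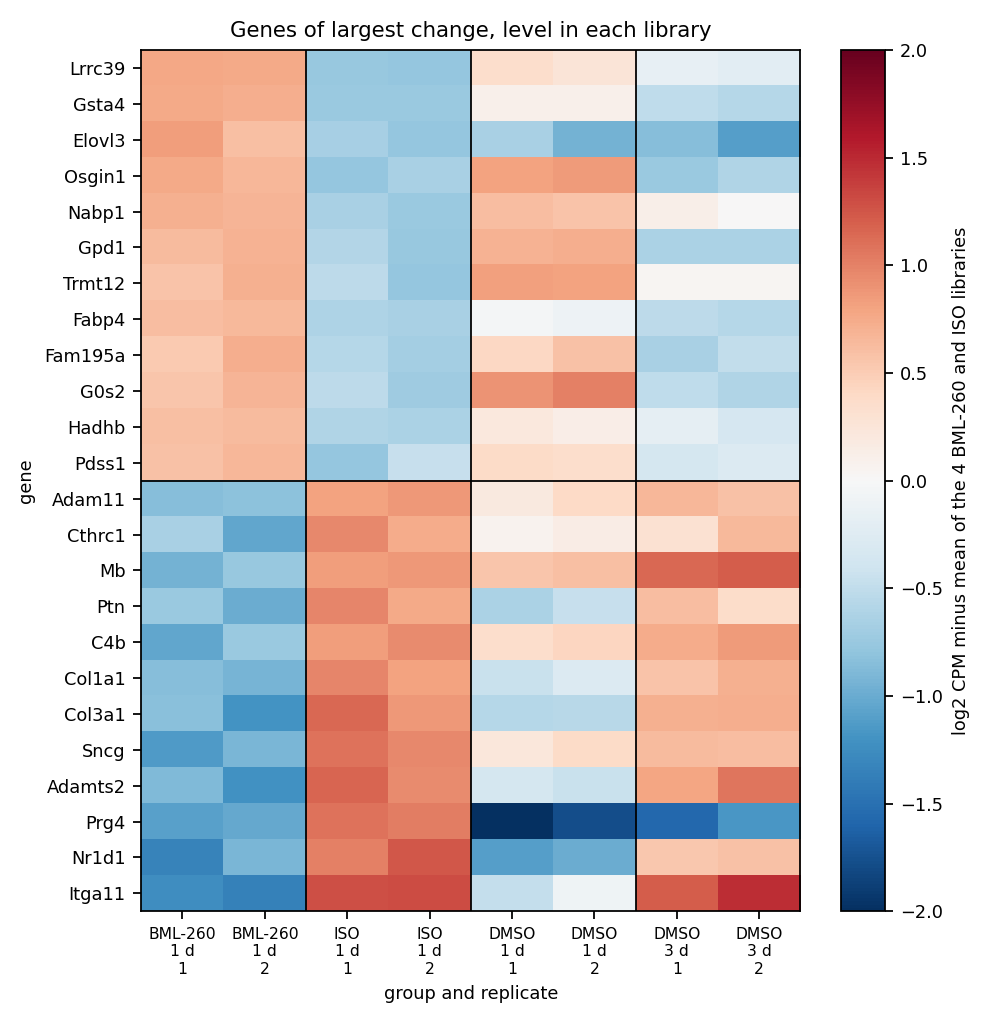
Level of the 12 higher and 12 lower genes of largest change in each library of 4 groups, as log2 CPM minus the mean of the 4 BML-260 and ISO libraries, in red above and in blue below it. Rows were chosen for no overlap between BML-260 and ISO. In several rows DMSO at 1 day takes the colour of BML-260 and DMSO at 3 days that of ISO.

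Fatty acid oxidation was higher nearly throughout. Of 23 tested genes of the pathway, 21 rose and 0 fell, with a median log2 difference of 0.64 beside 0.00 over all genes. Hadha, a subunit of the mitochondrial trifunctional protein that shortens long-chain fatty acids, had 1739 and 1719.5 CPM with BML-260, against 851 and 829 CPM with ISO and 1325 and 1244 CPM with DMSO at 1 day. Hadhb, its partner subunit, had 99.2 and 100.4 CPM with BML-260 and 42.8 and 42.1 CPM with ISO (log2 difference 1.23 ± 0.06, adjusted p = 2.0e-14). Acaa2, the thiolase of the same spiral, had 668 and 708 CPM with BML-260 and 389.8 and 371 CPM with ISO, and Eci1, which handles unsaturated chains, 283 and 311 CPM and 172 and 167 CPM. In these 4 genes the order of groups was BML-260, DMSO at 1 day, then ISO, with no overlap. They were named for their small p between BML-260 and ISO, so the separation of those groups is not a result. Measured against DMSO at 1 day, the list's median was 0.22 with BML-260 and -0.38 with ISO.

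Respiratory chain and citric acid cycle genes moved the same way by smaller amounts. Of 47 nuclear genes for subunits of oxidative phosphorylation, 45 rose and 0 fell (median 0.54), and of 18 citric acid cycle genes, 17 rose and 0 fell (median 0.49). Cytochrome c, Cycs, which carries electrons between complexes, had 128 and 136 CPM with BML-260, against 70.0 and 65.9 CPM with ISO and 103 and 105 CPM with DMSO at 1 day. Ndufa4 had 515 and 556 CPM with BML-260 and 290.3 and 284 CPM with ISO, and Ndufv2 of complex I had 365 and 368 CPM and 201 and 210.2 CPM. Sdhb and Fh1, which act in the citric acid cycle, and Dld, a dehydrogenase subunit of its complexes, had log2 differences of 0.63, 0.65 and 0.71. Against DMSO at 1 day the median of the oxidative phosphorylation genes was 0.14 with BML-260 and -0.41 with ISO, and that of the citric acid cycle genes 0.18 with BML-260 and -0.31 with ISO.

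The thermogenic genes did not move as a block. Of 19 tested brown fat genes, 11 rose and 2 fell, with a median of 0.49, and without ISO replicate 2 the number that rose was 7. Ucp1, the uncoupling protein itself (chr8:83290352-83298452), was among those that fell, with 15.3 and 12.6 CPM with BML-260, against 26.1 and 23.5 CPM with ISO, 6.05 and 5.10 CPM with DMSO at 1 day and 12.3 and 13.1 CPM with DMSO at 3 days. Both treatments lay above DMSO at 1 day without overlap, by 1.32 with BML-260 and 2.15 with ISO on the log2 scale, and BML-260 lay below ISO by -0.83 ± 0.10 (adjusted p = 1.7e-07). Ppargc1a, the coactivator of mitochondrial biogenesis, had 51.4 and 50.1 CPM with BML-260, against 36.9 and 34.4 CPM with ISO and 49.7 and 51.0 CPM with DMSO at 1 day. Its BML-260 libraries overlapped those of DMSO and its ISO libraries lay below both (log2 difference 0.51 ± 0.06). Cidea, a brown fat protein of the lipid droplet surface, had 144 and 167 CPM with BML-260 and 155 and 157 CPM with ISO, groups that overlapped (adjusted p = 1), and 128 and 130.3 CPM with DMSO at 1 day. Ppara, a nuclear receptor for fatty acids (0.68), Letmd1, a mitochondrial inner membrane protein (0.62), and Acot2, a mitochondrial thioesterase (0.68), rose. Dio2, which activates thyroid hormone, had too few counts to be tested.

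**Figure D3:**
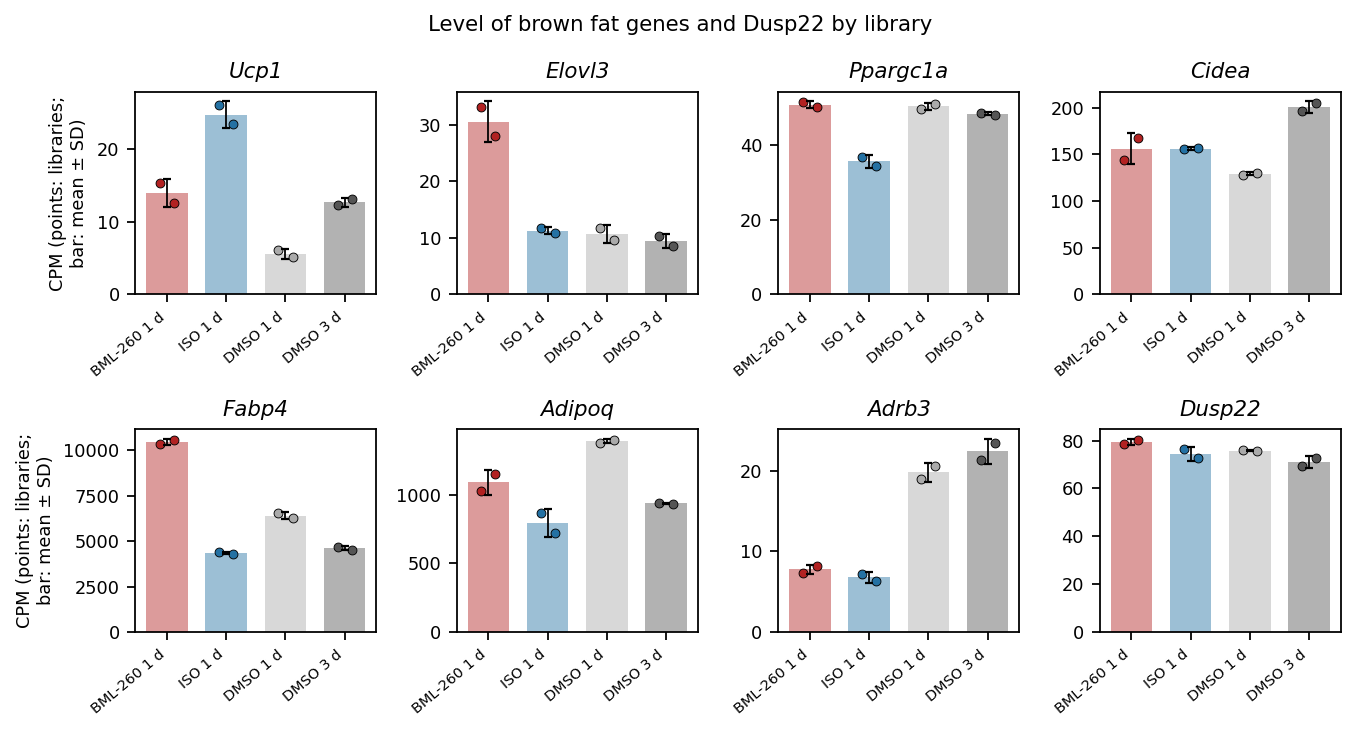
CPM of 7 adipocyte genes and Dusp22 in each library (points), with mean and SD of 2 libraries (bars), in BML-260 at 1 day, ISO at 1 day, DMSO at 1 day and DMSO at 3 days. Ucp1 is higher with ISO than with BML-260, Elovl3 and Fabp4 are higher with BML-260, and Adrb3 is low with both treatments.

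General adipocyte genes were mixed. Of 24 tested, 12 rose and 4 fell (median 0.24). Adipoq, the hormone adiponectin, had 1025 and 1153 CPM with BML-260, against 864 and 721 CPM with ISO and 1378 and 1402 CPM with DMSO at 1 day, a log2 difference of 0.46 ± 0.06 to ISO. Its level was lower with both treatments than with DMSO at 1 day. Cfd, the complement factor adipsin, followed the same order with 414 and 459.6 CPM with BML-260, 273 and 253 CPM with ISO and 566 and 622 CPM with DMSO at 1 day. Sncg, gamma-synuclein, which adipocytes express strongly (chr14:34370274-34374789), ran the other way with 31.0 and 36.2 CPM with BML-260, against 145 and 132 CPM with ISO, 79.9 and 89.0 CPM with DMSO at 1 day and 106 and 104 CPM with DMSO at 3 days. Its BML-260 libraries were the lowest of the 8 and did not overlap any other group (log2 difference to ISO -2.04 ± 0.07, adjusted p = 2.3e-18). Mb, the oxygen-binding myoglobin (chr15:77015487-77050670), had 67.4 and 76.6 CPM with BML-260, against 229.9 and 235 CPM with ISO, 189 and 197 CPM with DMSO at 1 day and 286 and 299 CPM with DMSO at 3 days. Again BML-260 stood alone below the rest, by -1.69 ± 0.06 on the log2 scale to ISO.

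Lipid synthesis and lipid droplet genes had no common direction. Of 21 genes of lipogenesis and triglyceride synthesis, 7 rose and 5 fell (median -0.06). Me1, malic enzyme, which supplies NADPH, rose with 689 and 636 CPM with BML-260 and 438 and 458 CPM with ISO, while Acaca, acetyl-CoA carboxylase, fell with 769 and 724 CPM and 933 and 1046 CPM. Of 14 lipolysis and droplet genes, 6 rose and 2 fell (median 0.04). Besides G0s2 the members named by smallest p were Cidec, a droplet fusion protein (0.45), Lipe, hormone-sensitive lipase (0.30), and Plin4, a perilipin (0.32), all higher with BML-260.

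Matrix genes were lower with BML-260 nearly throughout. Of 27 tested extracellular matrix genes, 26 fell and 0 rose, with a median log2 difference of -0.99. Col1a1, a chain of type I collagen (chr11:94936224-94953042), had 857 and 809 CPM with BML-260, against 3053 and 2694 CPM with ISO, 1129.5 and 1278 CPM with DMSO at 1 day and 2288 and 2519 CPM with DMSO at 3 days. The ISO libraries were the highest of the 8 and the BML-260 libraries the lowest (log2 difference -1.79 ± 0.06, adjusted p = 2.3e-18). Col3a1, the chain of type III collagen, had 263 and 205 CPM with BML-260 and 1040.1 and 853 CPM with ISO (log2 difference -2.02 ± 0.08). Fn1, fibronectin, had 726 and 671 CPM with BML-260, against 1987 and 1899 CPM with ISO, 1157 and 1221 CPM with DMSO at 1 day and 2029 and 2115 CPM with DMSO at 3 days, the last above ISO. Col5a2, a chain of type V collagen, had 406 and 384 CPM with BML-260 and 983 and 883 CPM with ISO. Against DMSO at 1 day the list's median was -0.42 with BML-260 and 0.69 with ISO, on opposite sides of that solvent group, and DMSO at 1 day itself lay below DMSO at 3 days by a median of -0.52.

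Most TGF-beta targets and matrix proteases and inhibitors fell, as did several single genes of the matrix. Itga11, a collagen-binding integrin with the largest decrease among genes of at least 10 CPM with ISO, had 2.47 and 2.27 CPM with BML-260, against 14.2 and 14.3 CPM with ISO (log2 difference -2.59 ± 0.16). Adamts2, which trims procollagen (-2.10), Prg4, lubricin (-2.10), Ptn, the growth factor pleiotrophin (-1.73), Cthrc1, a secreted collagen-associated protein (-1.69), Adam11, a catalytically inactive ADAM family member (-1.67), and Aebp1, a secreted collagen-binding protein (-1.51), belonged to the genes lowest relative to ISO. Prg4 had 2.76 and 2.90 CPM with BML-260, 12.5 and 11.9 CPM with ISO, 1.16 and 1.72 CPM with DMSO at 1 day and 1.98 and 2.63 CPM with DMSO at 3 days. Of 18 TGF-beta targets 15 fell and 0 rose (median -0.67), among them Tgfbi, an adhesion protein (-1.46), and Postn, periostin (-1.39). Of 17 matrix proteases and inhibitors 12 fell and 2 rose (median -0.84). Mmp11, stromelysin-3, had 73.7 and 84.3 CPM with BML-260, against 207 and 191 CPM with ISO, and Timp2, an inhibitor of matrix proteases, 50.7 and 49.1 CPM and 102 and 95.1 CPM. Mmp2, gelatinase A, had a log2 difference of -1.20.

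Markers of precursors and fibroblasts moved with the matrix genes. Of 13 tested, 11 fell and 0 rose (median -1.32), and the 15 in the table summed to 266 to 285 CPM with BML-260, 588 to 630 CPM with ISO, 385 to 392 CPM with DMSO at 1 day and 636 to 684 CPM with DMSO at 3 days. Fbn1, fibrillin, had 107 and 98.6 CPM with BML-260 and 293 and 286 CPM with ISO, and Pdgfra, a receptor that marks adipocyte precursors, 27.5 and 24.9 CPM and 51.1 and 46.0 CPM. Pdgfrb, its relative on mural cells and precursors (-0.76), and Sfrp2, a secreted Wnt modulator (-1.56), fell as well, and Lum had 0 counts in all 4 libraries. Of 9 smooth muscle and pericyte markers 5 fell and 0 rose, and 3 fell without ISO replicate 1. Their 11 members summed to 286 to 307 CPM with BML-260, 373 to 410 CPM with ISO and 397 to 400.0 CPM with DMSO at 1 day, and Tagln, an actin-binding protein of smooth muscle, had 12.2 and 14.3 CPM with BML-260 and 42.8 and 37.8 CPM with ISO. In bulk RNA, fewer cells of a type and less RNA per cell cannot be told apart, and the part of these markers in the matrix result was not tested.

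Most tested genes of the acute phase and NF-kB lists fell with BML-260, as did 13 of 26 interferon-stimulated genes. Of 19 genes of the STAT3 and acute phase list 15 fell and 1 rose (median -0.62). Lcn2, the iron-sequestering lipocalin, had 16.0 and 17.9 CPM with BML-260, against 43.7 and 48.2 CPM with ISO, 21.8 and 20.7 CPM with DMSO at 1 day and 22.3 and 25.0 CPM with DMSO at 3 days, so ISO stood above the other 3 groups. Complement C3 had 562 and 599 CPM with BML-260, against 902 and 882 CPM with ISO and 934 and 955 CPM with DMSO at 1 day, so here BML-260 stood below. Timp1, an inhibitor of matrix proteases, and Il6st, the shared receptor subunit of the IL-6 family, had log2 differences of -1.23 and -0.50. Of 9 complement genes 5 fell and 1 rose: C4b had 3.58 and 4.38 CPM with BML-260 and 13.2 and 14.2 CPM with ISO, C1ra 25.2 and 24.0 CPM and 54.4 and 48.5 CPM, and Cfd rose. Of 16 NF-kB targets 11 fell and 0 rose (median -0.54), among them Tnfaip3, which restrains the pathway (-0.81), Nfkb2 (-0.53), and the chemokines Ccl7 (-0.70) and Cxcl10 (-1.30). Of the 26 interferon-stimulated genes 1 rose and 12 did not pass (median -0.46), with the class I antigen presentation genes H2-K1 (-0.64), Tap1 (-0.60) and Psmb8 (-1.09) and the regulator Irf1 (-0.64) in front. Reads of H2-K1 and C4b can be split with near-identical relatives, so their levels are uncertain.

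The circadian clock genes were mostly lower with BML-260 than with ISO. Of 20 tested, 13 fell and 2 rose (median -0.48). Nr1d1, the repressor Rev-erb alpha (chr11:98767932-98775333), had 4.41 and 5.86 CPM with BML-260, against 22.3 and 26.3 CPM with ISO, 5.18 and 5.58 CPM with DMSO at 1 day and 16.1 and 16.7 CPM with DMSO at 3 days. The ISO libraries were the highest of the 8, those of DMSO at 3 days came next, and BML-260 overlapped DMSO at 1 day (log2 difference to ISO -2.24 ± 0.13, adjusted p = 9.2e-14). Per1, a period gene that also responds to cyclic AMP, had 41.9 and 42.7 CPM with BML-260, against 121 and 141 CPM with ISO, 44.4 and 42.1 CPM with DMSO at 1 day and 92.4 and 91.4 CPM with DMSO at 3 days. Bhlhe40, a repressor of the clock loop, had 143 and 141 CPM with BML-260, against 376 and 409 CPM with ISO and 156 and 146 CPM with DMSO at 1 day, and its relative Bhlhe41 had 11.8 and 9.87 CPM, 26.6 and 30.0 CPM and 9.37 and 9.77 CPM. In all 4 genes the ISO libraries lay above those of BML-260 and of both DMSO groups, and BML-260 did not pass the test against DMSO at 1 day. No source used here gives the hour of harvest.

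Clock activators bind the E-box CACGTG, and the cyclic AMP response element TGACGTCA is the site of CREB. Both motifs, which share the letters ACGT though neither holds the other, were searched on both strands in the 250 bases before each start listed by RefSeq (GRCm38.p6). The promoters of 2 clock genes and 1 cyclic AMP target are shown because these genes differed between BML-260 and ISO and hold a motif. Capitals mark the E-box in Per1 (chr11:69098699-69098948, plus strand) and Bhlhe41 (chr6:145865421-145865670, minus strand), and the response element and then the E-box in Dusp1 (chr17:26508473-26508722, minus strand).
Per1: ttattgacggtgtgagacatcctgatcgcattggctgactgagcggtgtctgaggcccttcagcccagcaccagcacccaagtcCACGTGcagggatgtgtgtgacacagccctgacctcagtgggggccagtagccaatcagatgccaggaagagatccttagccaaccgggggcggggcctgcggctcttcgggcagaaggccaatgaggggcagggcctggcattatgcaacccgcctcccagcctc
Bhlhe41: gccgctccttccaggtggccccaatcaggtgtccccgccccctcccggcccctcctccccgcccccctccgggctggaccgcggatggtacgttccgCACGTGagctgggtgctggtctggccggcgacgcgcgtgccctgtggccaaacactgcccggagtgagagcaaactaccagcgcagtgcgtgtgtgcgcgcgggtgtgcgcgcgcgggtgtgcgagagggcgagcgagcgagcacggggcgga
Dusp1: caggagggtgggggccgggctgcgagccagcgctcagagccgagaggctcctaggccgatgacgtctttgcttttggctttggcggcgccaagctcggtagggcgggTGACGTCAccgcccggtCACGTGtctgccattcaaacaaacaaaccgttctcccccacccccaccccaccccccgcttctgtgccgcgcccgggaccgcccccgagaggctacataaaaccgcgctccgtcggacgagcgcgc
A further start of Per1 and the start of Nr1d1 held neither motif in this window. Among genes with a promoter in the table, the E-box was found in 17 of 191 (8.9%) of those lower by at least 1 on the log2 scale and 6 of 143 (4.2%) of those higher, beside 986 of 9896 (9.96%) of all tested genes. The response element was found in 4 of 191 (2.09%), 3 of 143 (2.1%) and 302 of 9896 (3.05%). Over all 32851 windows of the table the shares were 6.02% and 1.55%.

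Genes that answer to cyclic AMP were mostly, but not uniformly, lower with BML-260. Of 21 tested targets 11 fell and 5 rose with BML-260 (median -0.30). Besides Per1, Sik1, a kinase that holds CREB coactivators in the cytoplasm, fell with 32.8 and 30.5 CPM with BML-260, against 70.4 and 64.5 CPM with ISO and 34.1 and 33.7 CPM with DMSO at 1 day, and Fosl2, an AP-1 factor, with 63.7 and 57.3 CPM and 101 and 102 CPM. Dusp1, the phosphatase whose promoter is shown above, rose with 54.3 and 58.7 CPM with BML-260, against 34.2 and 32.1 CPM with ISO and 64.0 and 63.4 CPM with DMSO at 1 day. Of 18 AP-1 and immediate early genes 8 fell and 2 rose, among them Junb (-0.91), Jun (-0.48) and Ier3 (-0.85), which were lower. Among 17 receptors and cyclic AMP components 5 rose and 4 fell, and the number that fell was 2 under DESeq2, under upper-quartile scaling and in 3 other settings. Adrb3, the main beta-adrenergic receptor of rodent adipocytes, had 7.34 and 8.18 CPM with BML-260, against 7.24 and 6.30 CPM with ISO, 19.0 and 20.6 CPM with DMSO at 1 day and 21.3 and 23.5 CPM with DMSO at 3 days. It lay far below DMSO with both treatments, and its log2 difference between them of 0.21 ± 0.14 did not pass the test (adjusted p = 0.22). Adrb1 had 22.3 and 24.4 CPM with BML-260, against 13.0 and 13.9 CPM with ISO and 22.8 and 23.8 CPM with DMSO at 1 day. Akap1, a mitochondrial anchor of protein kinase A (0.56), and Prkar2b, a regulatory subunit of that kinase (0.46), rose, and Pde4d, which breaks cyclic AMP down (-0.43), fell.

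Most hypoxia genes and chaperones of the endoplasmic reticulum were lower with BML-260 than with ISO. Of 18 hypoxia genes 12 fell and 4 rose (median -0.32). Against DMSO at 1 day, 9 of the 18 were higher and 1 lower with BML-260 (median 0.135). With ISO 14 were higher and 2 lower than with that solvent group (median 0.6). Over all 15212 tested genes, BML-260 had 1417 higher and 1311 lower than DMSO at 1 day. ISO had 3253 higher and 3086 lower, so the list counts of both treatments stand beside unlike totals. Ddit4, an inhibitor of mTORC1, had 72.5 and 74.3 CPM with BML-260, against 151 and 151 CPM with ISO and 87.5 and 90.2 CPM with DMSO at 1 day, and Ndrg1 had 152 and 146 CPM with BML-260, against 239 and 252 CPM with ISO and 111 and 107 CPM with DMSO at 1 day. In Ddit4 BML-260 lay lowest of these groups and in Ndrg1 it lay between the others. The demethylase Kdm3a (-0.67) and the collagen prolyl hydroxylase P4ha1 (-0.64) fell too. Of 18 endoplasmic reticulum chaperones and related genes 12 fell and 0 rose (median -0.21). Changes were small in Hyou1 (-0.49), Herpud1 (-0.41), Calr (-0.32) and Hspa5, the chaperone BiP (-0.37). Against DMSO at 1 day, 4 of these 18 were higher and 0 lower with BML-260 (median 0.096), and 16 higher and 0 lower with ISO (median 0.3). Glycolysis genes split, 7 higher and 6 lower of 19. Ldhb, a lactate dehydrogenase subunit, rose with 282 and 291 CPM with BML-260 and 163 and 152 CPM with ISO. The glucose transporter Slc2a1 (-0.54), hexokinase Hk2 (-0.39) and Pdk4, the kinase that shuts pyruvate dehydrogenase (-0.61), fell.

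Most targets of the oxidative stress factor NRF2 rose, and those of the stress factor ATF4 went both ways. Of 25 NRF2 targets 17 rose and 2 fell (median 0.29). Besides Gsta4, Prdx1, a peroxiredoxin, had 409.7 and 427 CPM with BML-260, against 281 and 268 CPM with ISO and 361 and 343 CPM with DMSO at 1 day, and the pentose phosphate enzymes Taldo1 and G6pdx had log2 differences of 0.61 and 0.53. Of 23 ATF4 targets 10 rose and 5 fell (median 0.10). Asns, asparagine synthetase, had 249 and 246 CPM with BML-260 and 150.0 and 159.6 CPM with ISO, and Psph, of serine synthesis (0.76), and the factor Atf5 (0.71) rose while Ddit4 fell. Of 25 proliferation genes 15 fell and 1 rose (median -0.18), with Aurkb, a mitotic kinase, at 58.1 and 52.2 CPM with BML-260, against 81.0 and 81.9 CPM with ISO and 58.8 and 59.5 CPM with DMSO at 1 day. Cdc20 (-0.55), Ccnb2 (-0.49) and Ccna2 (-0.42), which drive cells through division, fell too. Unlike Aurkb, 15 of the 25 were lower and 0 higher with BML-260 than with DMSO at 1 day (median -0.167). With ISO 10 were higher and 6 lower than with that solvent group (median 0.052). Over all 15212 tested genes the counts were 1311 lower and 1417 higher with BML-260, and 3253 higher and 3086 lower with ISO.

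**Figure D4:**
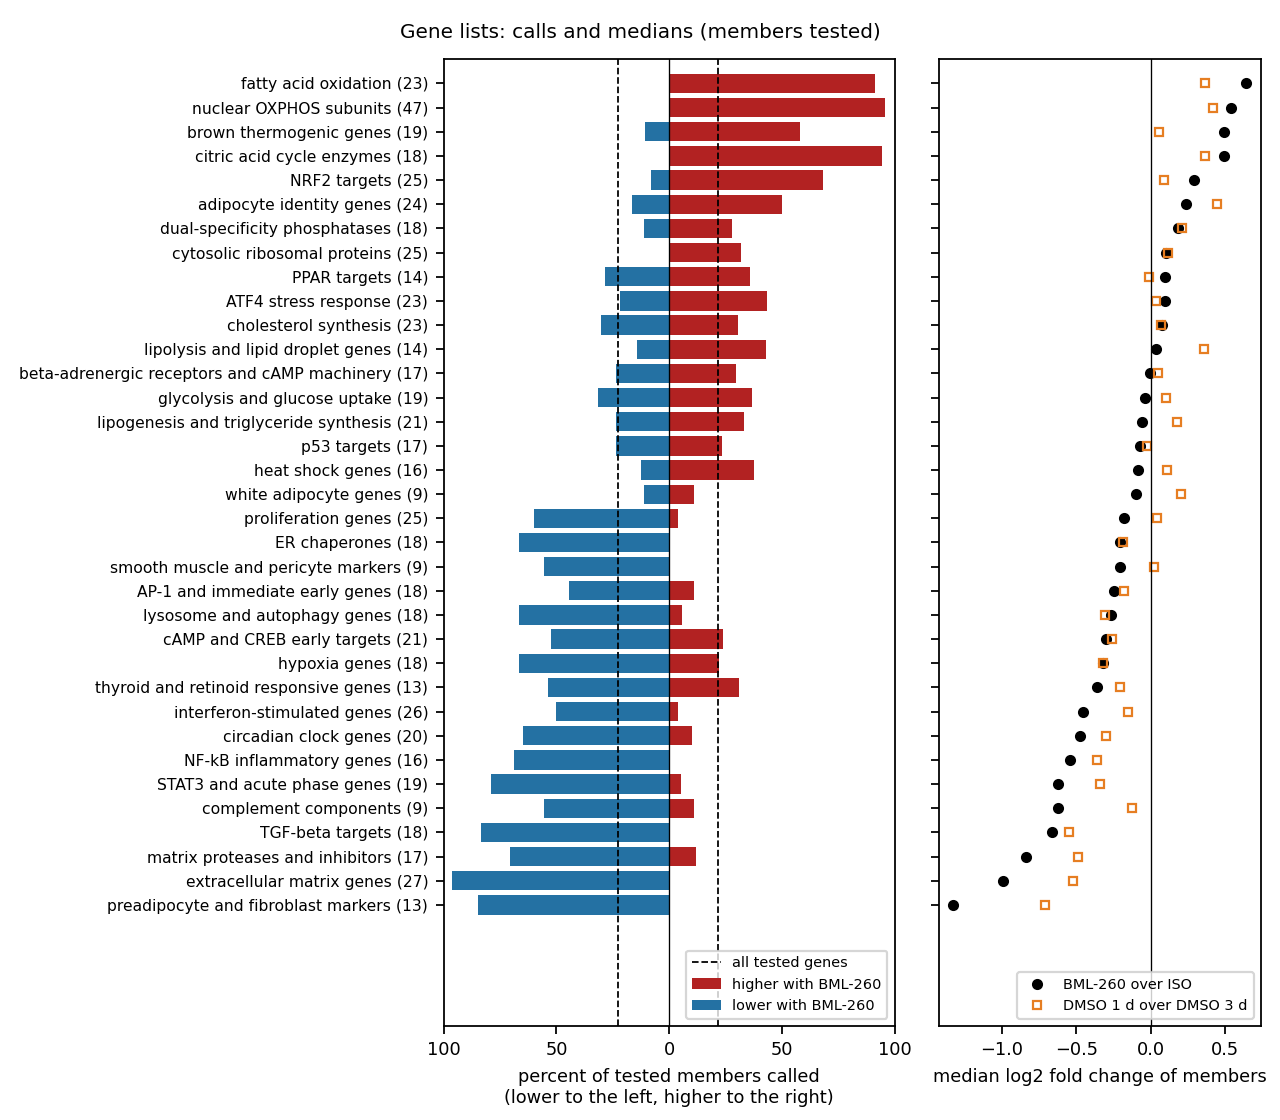
For each gene list with at least 9 tested members (number in brackets), the percent of members called lower (blue, to the left) and higher (red, to the right) with BML-260 than with ISO, and the median log2 fold change of the members for BML-260 over ISO (filled) and for DMSO at 1 day over DMSO at 3 days (open). Dashed lines mark 21.6% and 22.8% of all tested genes, and lists of fat oxidation and respiration lie at the top and matrix and fibroblast lists at the bottom.

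Both groups are listed at 1 day, yet the difference between them had much in common with that between 1 and 3 days of DMSO, which uses no library of BML-260 or ISO. Between DMSO at 1 day and at 3 days 5313 genes (34.9%) were called, 2560 higher (16.8%) and 2753 lower (18.1%) at 1 day. Of the 3288 genes higher with BML-260 than with ISO, 1677 were also higher in DMSO at 1 day than at 3 days, which is 51.0% of the first list and 65.5% of the second, and 44 were lower. Of the 3464 genes lower with BML-260, 1895 were lower in DMSO at 1 day, 54.7% of the first list and 68.8% of the second, and 71 were higher. Across all 15212 genes, which are not independent replicates, the log2 differences had a Pearson r of 0.575, and 0.765 across the 6752 called genes. Gene by gene, Gpd1 differed by 1.33 between BML-260 and ISO and by 1.34 between DMSO at 1 and 3 days, and Osgin1 by 1.41 and 1.50. For Nr1d1 the values were -2.24 and -1.60, and for Fn1 -1.48 and -0.80.

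A contrast of both differences in 1 fit shows which genes set BML-260 and ISO apart by more or less than 1 and 3 days of DMSO. It called 1680 genes (11.0%), 722 with a positive value (4.75%) and 958 with a negative one (6.30%). The count is sensitive to single DMSO libraries: it was 914 without DMSO 1 day replicate 2 and 1033 without DMSO 3 days replicate 1, and DESeq2 gave 990. Among genes higher with BML-260, Elovl3 had a value of 1.27 (adjusted p = 1.0e-05), Lrrc39 of 1.04, Gsta4 of 0.83, Hadhb of 0.81 and Fabp4 of 0.79, while Gpd1 (-0.01), Osgin1 (-0.09) and Thrsp (0.15) did not pass. On the lower side Sncg had -1.73 (adjusted p = 1.4e-12), C4b -1.37, Adam11 -1.34, Lcn2 -1.28, Sfrp2 -1.22 and Mb -1.09. Cidea, with overlapping BML-260 and ISO libraries, had 0.63 (adjusted p = 3.7e-06), beside -0.63 between DMSO at 1 and 3 days, and Ucp1 had 0.36 and did not pass (adjusted p = 0.18).

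By list, the contrast called 22 of 27 matrix genes, all negative (median -0.48), and 15 of 25 proliferation genes, all negative (median -0.26). Of the 25 proliferation genes, DMSO at 1 day against 3 days had 5 higher and 3 lower. The contrast was positive for 14 fat oxidation genes and negative for 1 of 23 (median 0.30), and positive for 9 brown fat genes and negative for 1 of 19 (median 0.36). Other fat cell lists leaned the other way. Of the 21 lipogenesis and triglyceride synthesis genes 3 were positive and 10 negative (median -0.089). Of the 24 adipocyte genes 3 were positive and 8 negative (median -0.08). Of the 47 oxidative phosphorylation genes 16 were positive and 1 negative (median 0.13), of the 20 clock genes 1 positive and 6 negative (median -0.18), and of the 18 endoplasmic reticulum chaperones 0 and 0 (median -0.02).

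**Figure D5:**
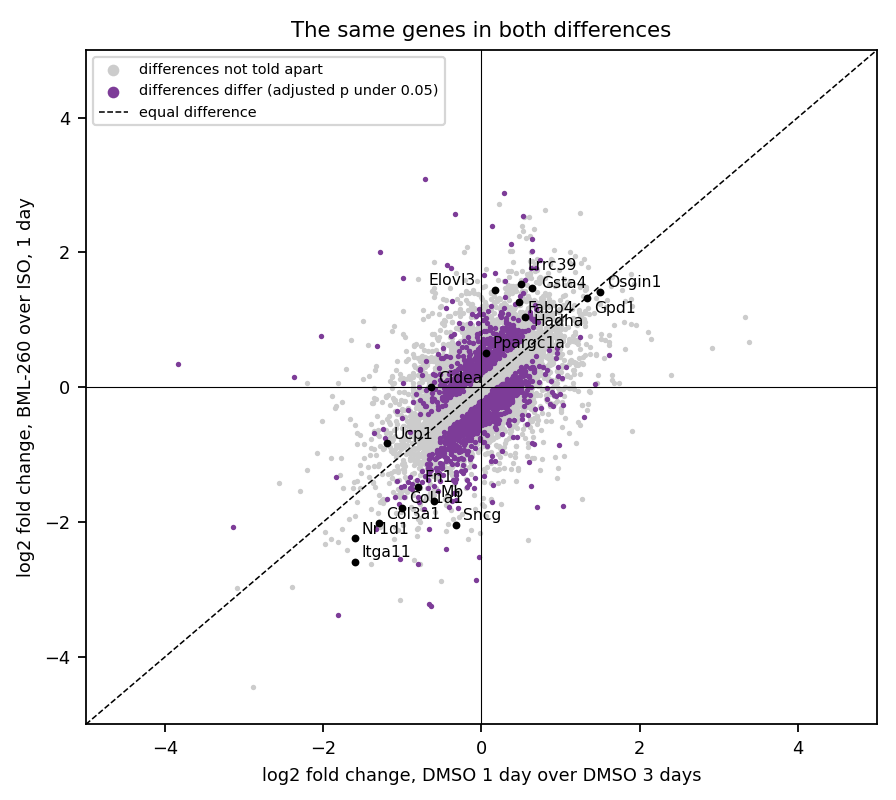
Log2 fold change of BML-260 over ISO at 1 day (vertical axis) against that of DMSO at 1 day over DMSO at 3 days (horizontal axis), 1 point per tested gene, with the 1680 genes whose differences differ in purple and a dashed line of equal difference. Gpd1 and Osgin1 lie near the line, Elovl3 and Fabp4 above it and Sncg and Mb below it.

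The authors' deposited table of their own comparison covers BML-260, with both treatment times pooled, against ISO and lists genes past an unadjusted p of 0.05. A negative log2 fold change in the authors' deposited table marks 901 genes and a positive one 660, and for 202 and 69 of these the adjusted p is under 0.05. Of the 901 genes of negative sign in the authors' deposited table, 850 were lower with 1 day of BML-260 in the edgeR fit and 0 higher, and of the 660 positive ones 645 were higher and 0 lower. For Mb the authors' deposited table gives -1.57, for Adam11 -1.45, for C4b -1.35, for Sncg -1.08 and for Elovl3 0.94. Other named genes stand out less there. Col3a1 (-0.35), Osgin1 (0.37) and Ppargc1a (0.29) have the same sign as above but an adjusted p over 0.05, and Gpd1 and Ucp1 are not listed. Both tables share the ISO and 1-day BML-260 libraries, so they are not independent of each other.

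Exons of several named genes overlap those of a gene on the opposite strand in the annotation (GENCODE M21), among them Elovl3 with Pitx3, Lrrc39 with Trmt13, Nr1d1 with Thra, Mb with Apol6, Hadha with Garem2, Prg4 with Tpr, Pdss1 with Abi1, Mmp11 with Chchd10, Junb with Prdx2 and Tagln with Pcsk7. No source used here says whether counting used the strand, so reads of such partners cannot be told apart. Of 168 genes chosen by rule, 50 have such an overlap on either strand.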

How the data were processed

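Raw counts per gene symbol were taken from the table the authors deposited, whose 24640 symbols each have at least 2 counts over the 10 libraries. TopHat2 2.1.1, bcl2fastq 2.17.1.14, DESeq2 and bedtools are named in the submitters' processing notes, along with 2 builds, mm10 and mm9, whose roles are unstated. No source used here gives the counting rule or the annotation. Dates stood in place of the symbol in 26 rows, which held 0.242% to 0.264% of a library and were kept. The authors also deposited a table of BML-260 (both times) against ISO with log2 fold changes and p-values for genes with an unadjusted p under 0.05, per the file headers, and every symbol in it had the counts of the full table.

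Counts were tested with edgeR 4.0.16 in R 4.3.3: TMM scaling, filterByExpr (minimum count 10, minimum total 15), which kept 15212 genes. The quasi-likelihood model had a mean for each of 5 groups and used all 10 libraries, leaving 5 residual degrees of freedom. P-values were adjusted by Benjamini-Hochberg across the 15212 genes. A gene rose, fell or was called where adjusted p was under 0.05. SE is the absolute log2 fold change over the square root of F. With BML-260 at 1 day and ISO, totals of 16955918 to 21185675 counts and a biological coefficient of variation of 3.39% set the precision. Within a group the log2 CPM of the 2 libraries correlated at 0.9943 or above, and their mean chi-square per gene was 1.92 to 3.09, above the 1 that counting error alone gives. Replicate numbers are shared by the groups, but deviations of same-numbered libraries from their group means correlated at only -0.034 to 0.058, so the numbers were not taken as pairs.

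The comparison, its members, the tests and the 42 gene lists (734 genes, 637 tested) were chosen with earlier results of these data known. Lists are described by counts and medians without a test. Genes were named by rule: called, at least 10 CPM in the higher group, no overlap between groups and no predicted locus, the 12 higher and 12 lower of largest change, the 6 and 6 of largest change at 200.0 CPM or more, up to 4 members of smallest p per list, and Ucp1, Ppargc1a, Dio2, Cidea, Elovl3, Adrb3, Adipoq, Fabp4 and Dusp22 always. Some genes that the rule chose are not reported here. Coordinates came from GENCODE M21 (GRCm38) by symbol, which matched 93.1% of tested genes, and promoters from RefSeq (GRCm38.p6). Counts were also simulated with 1 common spread for every gene and with 100 genes changed by each size, all of at least 10 CPM. There edgeR recovered 95% of genes changed by 0.5 and 100% of those changed by 1 on the log2 scale for BML-260 against ISO (14959 genes), with 4.41% false calls. For the contrast with the DMSO time difference (14973 genes) it recovered 90% and 100%, with 7.77% false calls, above the 5% aimed at. In the data 44.4% of genes were called and low counts were tested too, so these rates need not hold for them. Alternatives were DESeq2 1.42.0, 2 other scalings, no filter, fitting only the groups compared, a replicate block and leaving out each library.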

Additional observations from a re-analysis of the deposited data

How the results depend on the processing

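The 6752 calls between BML-260 and ISO became 4977 with DESeq2, 6755 with DESeq2 size factors, 6808 with upper-quartile scaling (3821 higher, 2987 lower, with the median of all genes moved by 0.0385), 6499 without the filter, 6455 with only the groups compared and 6869 with the replicate block. Leaving out 1 library gave 5221 to 5948. Calls shared with the first fit kept their direction in each of these settings. Genes called with a change of at least 1 on the log2 scale numbered 613, and 387 with DESeq2. The contrast with the DMSO time difference had 1680 calls (722 positive, 958 negative, 104 of at least 1), and 990 (359, 631 and 40) with DESeq2 and 1839 with the replicate block. Its ranges on leaving out 1 library were 914 to 1717 calls, 359 to 760 positive, 555 to 957 negative and 57 to 101 of at least 1, and why single DMSO libraries matter was not tested. Between BML-260 and ISO, only Cidea among the genes named in the text changed sign, always near 0. Its log2 difference was 2e-04 with DESeq2 size factors, 0.0382 with upper-quartile scaling, 0.0017 with only the groups compared and -0.1068 to 0.1003 on leaving out 1 library. Every other named gene kept its direction and its side of the threshold between BML-260 and ISO in all settings run. The replicate block changed no call of a named gene in that comparison. Of the list values for it, 77 counts and 34 medians were labelled as moved over all settings, and 761 and 385 as the same. The contrast with the DMSO time difference was rerun for its total counts only, so its values for single genes and lists were not rechecked. Counting error limits what can be seen in genes of few counts, such as Dio2.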

Other observations

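Lysosomal genes, not described above, were mostly lower with BML-260. Of 18 lysosome and autophagy genes 12 fell and 1 rose (median log2 difference -0.27, beside 0.00 over all genes). Sqstm1, the autophagy receptor p62, had 659 and 693 CPM with BML-260, against 915 and 978 CPM with ISO and 533 and 539 CPM with DMSO at 1 day. Npc2, which exports cholesterol from lysosomes, had 396 and 396 CPM with BML-260 and 555 and 544 CPM with ISO, and Hexa, a lysosomal hexosaminidase, had a log2 difference of -0.43. The mitochondrial chaperonin Hspd1 had 1122 and 1065 CPM with BML-260 and 697 and 697 CPM with ISO, and its partner Hspe1 281 and 284 CPM and 173 and 173 CPM. Over that list 6 of 16 rose and 2 fell, with a median of -0.08.

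Thyroid and retinoid responsive genes went both ways, with 4 of 13 higher and 7 lower (median -0.36). Rbp4, the carrier of retinol, had 203 and 200.4 CPM with BML-260, against 372 and 372 CPM with ISO and 218 and 221 CPM with DMSO at 1 day. Hr, a corepressor of nuclear receptors, had 17.7 and 17.1 CPM with BML-260 and 40.1 and 41.8 CPM with ISO. Aldh1a7, an aldehyde dehydrogenase, had 211 and 201 CPM with BML-260, against 103 and 106 CPM with ISO and 152 and 134 CPM with DMSO at 1 day. Of 5 tested beige adipocyte markers 3 fell and 1 rose (median -0.162). The 9 in the table summed to 418.4 to 453.4 CPM with BML-260 and 473.0 to 490.4 CPM with ISO. Among them Tnfrsf9, a receptor of the tumour necrosis factor family, had 0.47 and 0.422 CPM with BML-260, against 4.19 and 5.11 CPM with ISO, 0.815 and 0.698 CPM with DMSO at 1 day and 2.34 and 2.99 CPM with DMSO at 3 days. Its log2 difference to ISO was -3.38 ± 0.29 (adjusted p = 3.8e-10) and rests on few counts with BML-260. Among 18 dual-specificity phosphatases the member of smallest p after Dusp1 was Dusp4, with 31.8 and 32.8 CPM with BML-260 and 24.5 and 20.2 CPM with ISO.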
